A study of Homo sapiens with 12 samples.

Results

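The comparison set 3 libraries of cells expressing NSD2 with the D1240A substitution against 3 libraries of cells expressing wild-type NSD2, 6 of the 12 libraries of the series, chosen by their labels. Every library came from TKO cells, which derive from KMS-11, a line of human multiple myeloma, and carry the genotype WHSC1(+/-), WHSC1 being the former symbol of NSD2. The WT group carried an NSD2 expression vector and the D1240A group a vector with alanine in place of aspartate at the residue that the name numbers, in the C-terminal region beyond the catalytic SET domain. The 2 other groups of 3 libraries, TKO with no vector and F1295A with another C-terminal substitution, entered the fit and are given as values beside the comparison. TKO cells carrying an empty vector were not analysed here, and the labels do not say whether a vector line is 1 clone or a pool. Poly(A) RNA was sequenced, and the study asked how mutant NSD2 alters gene expression, with cell adhesion genes named in its title.

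NSD2 transfers methyl groups to lysine 36 of histone H3 in gene bodies, a mark of active chromatin that restricts the spread of the repressive H3K27 mark laid down by the PRC2 complex. In myeloma with the t(4;14) translocation, NSD2 and FGFR3 come under immunoglobulin heavy chain enhancers. The C-terminal part of the protein holds zinc-binding reader modules that contribute to its place on chromatin.

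Values are FPKM (fragments scaled to transcript length and library depth), rescaled between libraries after structural RNA features were left out. A log2 change is the difference of group means of log2(FPKM + 0.5), which understates the change of low genes, and is given with its standard error (SE) in D1240A against WT. Calls were made with limma at a Benjamini-Hochberg adjusted p below 0.05 over all 14391 tested genes. "Rose" and "fell" are used only for called genes. The labels number the samples as biological replicates without saying that they came from separate cultures, so p-values measure the spread between these samples, which may be technical. From the step size of low FPKM values, the WT libraries held roughly 51900000 to 57600000 mapped fragments and the D1240A libraries roughly 54800000, 32700000 and 38400000 in replicates 1, 2 and 3.

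D1240A replicate 2 stood apart before any gene was compared. Of its summed FPKM 51.4% fell on ribosomal RNA features, where the remaining 11 libraries had 0.133% to 0.995%, and its rescaling factor was -0.30 on the log2 scale, against -0.00 to 0.06. Of 44 tested replication-dependent histone genes, whose mRNAs mostly lack poly(A) tails, 42 were higher in it than in both other D1240A libraries, by a median log2 difference of 3.98. Results are therefore also given without this library where that changes a call or moves a count by over 1.5 times.

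The plasma cell label was met in part. Of 9 plasma cell markers, 6 were above 1 FPKM in all 6 libraries, JCHAIN at 2992 to 3902 FPKM and MZB1 at 211 to 242 FPKM among them. SDC1, the surface proteoglycan that defines plasma cells clinically, was at 0.129 to 0.369 FPKM, and CD38 was at 0.311 to 0.872 FPKM. The line's own markers were present in every library, with FGFR3 at 387 to 508 FPKM and MAF at 98.7 to 124 FPKM. Markers of B and myeloid cells summed to at most 0.691 and 0.209 FPKM in any of the 6 libraries, and CD22, CD3D, NKG7, FCGR3A and COL1A2 were listed at 0 in all 6. The 5 T and NK cell markers summed to 0.820 to 0.918 FPKM in WT and 0.991 to 1.81 FPKM in D1240A, and the 4 stromal markers, nearly all COL1A1, to 0.204 to 0.733 and 0.960 to 1.58 FPKM. The 3 epithelial markers had the highest sum of these classes, 2.85 to 3.31 FPKM in WT and 2.18 to 2.65 FPKM in D1240A, with EPCAM at 1.502 to 2.84 FPKM. The 9 plasma cell markers summed to 4679 to 4913 FPKM in WT and 3822 to 4146 FPKM in D1240A. The part of these differences in the results was not tested.

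NSD2 itself (chr4:1871424-1982207, plus strand, GRCh38) was read first. It stood at 189, 188 and 195 FPKM in WT replicates 1 to 3 and at 242, 259 and 250.3 FPKM in D1240A replicates 1 to 3. The groups did not overlap, and the level was higher in D1240A by 0.39 ± 0.04 (SE, log2; limma, Benjamini-Hochberg adjusted p = 5.29e-05). TKO cells held 60.1 ± 2.3 FPKM and F1295A cells 164 ± 6.6 FPKM (mean ± SD, n = 3), so the D1240A line had the highest NSD2 mRNA level of the 4 groups. Gene-level FPKM sums endogenous and vector transcripts, and the substitution and the higher NSD2 level cannot be told apart in what follows.

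Across all genes, 1183 were higher in D1240A than in WT (8.22% of those tested) and 1573 were lower (10.9%), 19.2% together. Most changes were small: the median called gene differed 1.22-fold, 25 genes rose and 57 fell by at least 2-fold, and the median of all tested genes was 0.01 on the log2 scale. The 3 libraries of one group lay wholly above or below the other for 2714 of the 2756 called genes, against 35.5% of all tested genes. The calls were made from the same libraries, so this separation largely follows from them. Without D1240A replicate 2, 965 genes were higher (6.73% of 14332 tested) and 1275 lower (8.90%), and 819 and 1170 of the calls were made in both fits. Without WT replicate 1, 724 were higher and 999 lower. Of the called genes 42.9% were higher, but 15.5% with the values as deposited, where 249 were higher (1.72%) and 1359 lower (9.4%) and the median of all genes was -0.10. Set directly against F1295A, D1240A differed in 877 genes (6.09% of those tested, limma), with NSD2 higher by 0.61 and CIITA by 0.69.

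**Figure D1:**
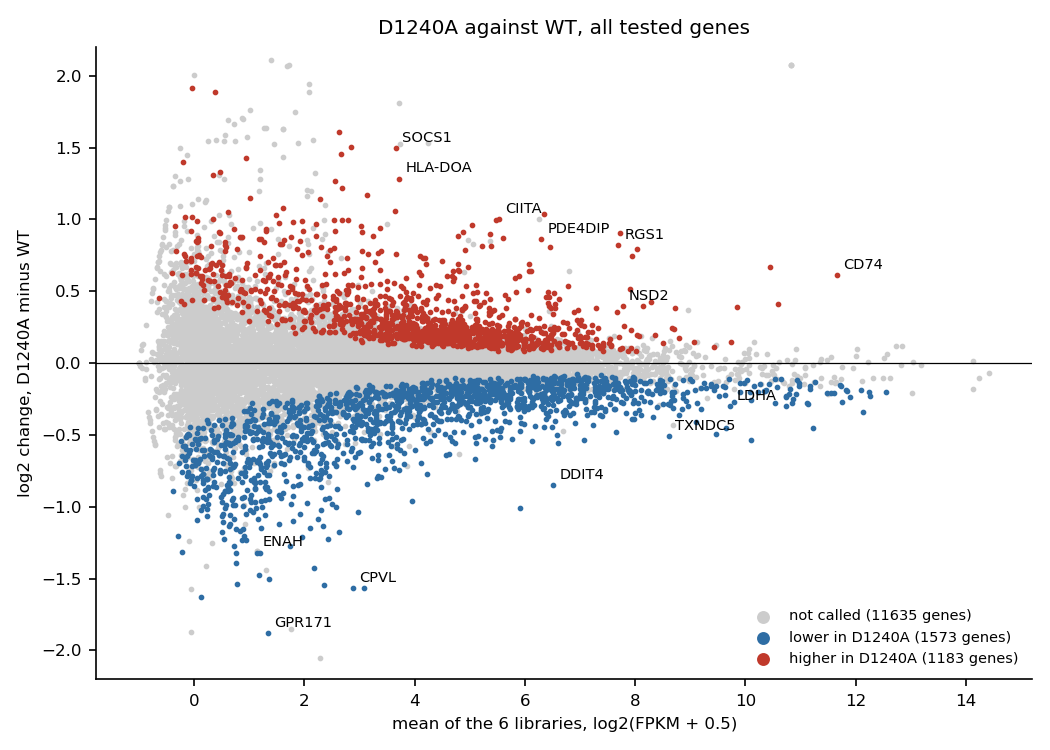
Log2 change of D1240A minus WT (vertical axis) against the mean of the 6 libraries in log2(FPKM + 0.5) (horizontal axis), 1 point per tested gene, with 11 genes outside the vertical range. The 1183 genes called higher are red, the 1573 called lower are blue, with a median change among called genes of 1.22-fold.

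Most genes of MHC class II antigen presentation rose. This machinery loads peptides onto HLA-DR, -DQ and -DP chains, with CD74 as the invariant chain, HLA-DM and HLA-DO as loading factors, and CIITA as the coactivator that drives the genes through the RFX complex. Of 18 tested members 14 rose and 0 fell, both with and without D1240A replicate 2, against 8.22% of all tested genes higher, and the list median was 0.72. In limma, 1 member was lower at an unadjusted p under 0.05. With the values as deposited 12 rose and the median was 0.60. The class II list and the other gene lists were written with earlier results of these data known, so their counts are descriptions. For every list count that follows, the shares over all tested genes were 8.22% higher and 10.9% lower. They were 6.73% and 8.9% without D1240A replicate 2, and 1.72% and 9.4% with the values as deposited.

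Promoter stretches of HLA-DOA and HLA-DRB1 are shown because these 2 chain genes rose and carry the letters of the X and Y boxes that RFX and NF-Y are known to bind. The stretches run from 150 to 31 bases upstream of the RefSeq start on GRCh38.p14, minus strand, at chr6:33009622-33009741 and chr6:32589879-32589998. Capitals mark AGCAAC (X box core) and GATTGG (Y box core), both searched on both strands.
HLA-DOA: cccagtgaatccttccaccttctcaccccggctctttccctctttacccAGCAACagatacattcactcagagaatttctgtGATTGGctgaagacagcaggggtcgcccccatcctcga
HLA-DRB1: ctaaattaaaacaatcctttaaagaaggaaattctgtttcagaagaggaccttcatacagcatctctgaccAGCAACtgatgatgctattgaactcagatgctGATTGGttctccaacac
The Y box letters began 68 bases upstream in HLA-DOA and 47 bases upstream in HLA-DRB1, in both downstream of the X box letters. Of the 15 tested class II members with a RefSeq promoter entry, 9 held GATTGG and 6 held AGCAAC within 250 bases upstream, and 5 held both. Among all 35116 promoter entries, 14.1% held GATTGG, 10.3% AGCAAC and 1.48% both. A member counted if any of its RefSeq starts held the letters, even with each box at a different start. The shares over all entries count single starts, so the units are unlike and favour the members. The motifs were chosen with the class II result known.

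CIITA (chr16:10866222-10943021) stood at 31.9, 32.5 and 32.5 FPKM in the WT libraries and at 62.6, 68.5 and 64.3 FPKM in the D1240A libraries. The groups were far apart, a rise of 1.00 ± 0.05 (adjusted p = 4.11e-07, limma), with 71.0 ± 2.2 FPKM in TKO and 40.3 ± 2.6 FPKM in F1295A. HLA-DOA, a chain of the HLA-DO modulator of peptide loading, was at 8.87, 7.46 and 7.64 FPKM in WT and 20.8, 20.1 and 19.5 FPKM in D1240A, higher by 1.28 ± 0.08 (limma adjusted p = 1.38e-06). Its TKO level, 8.68 ± 0.72 FPKM, lay near that of WT, unlike the class II list as a whole. The list median was -0.63 in WT against TKO and -0.06 in D1240A against TKO. D1240A against F1295A gave a list median of 0.34. HLA-DOA was also higher in F1295A than in WT, by 0.68 (limma adjusted p = 0.000957).

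HLA-DRB1, a beta chain of HLA-DR, was at 149.97, 164 and 151 FPKM in WT and 305, 279 and 289 FPKM in D1240A, higher by 0.91 ± 0.04 (limma adjusted p = 3.07e-07). The invariant chain CD74 was among the most abundant mRNAs, at 2676, 2578 and 2624 FPKM in WT and 4086, 3950.5 and 4004 FPKM in D1240A. It rose by 0.61 ± 0.03 (limma adjusted p = 5.95e-07), and its D1240A level lay below the 4811 ± 115 FPKM of TKO. HLA-DRA, HLA-DMB and HLA-DPB1, named here after their values were seen, rose by 0.67, 0.90 and 0.80, HLA-DQA1 by 1.04 and HLA-DPA1 by 0.75. RFX5, the DNA-binding RFX subunit, rose by 0.26 (limma adjusted p = 0.00162), a call lost with the values as deposited (limma adjusted p = 0.334), whereas its partners RFXANK and RFXAP did not pass the test at -0.01 and -0.02. HLA-DRB1 and its paralogs have near-identical stretches, so how fragments were divided among them is uncertain.

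**Figure D2:**
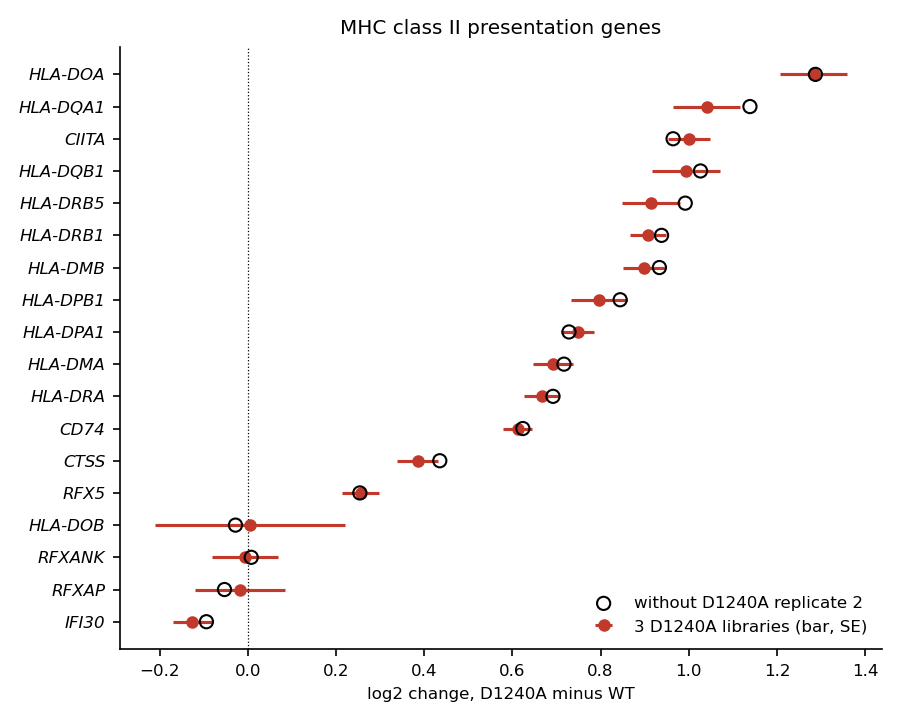
Log2 change of D1240A minus WT for the 18 tested class II presentation genes (horizontal axis), with SE bars for the fit with 3 D1240A libraries and open circles for the fit without D1240A replicate 2. The 14 called genes run from RFX5 at 0.26 to HLA-DOA at 1.28, and 4 genes lie near 0.

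Other immune genes moved in part. Of 21 tested MHC class I presentation genes 6 rose and 1 fell, with a median of 0.05, but with the values as deposited 1 rose and the median was -0.07. The gene that fell was not called without D1240A replicate 2 (limma, 1 member lower at an unadjusted p under 0.05). HLA-B, a classical class I heavy chain, was at 365, 378 and 369 FPKM in WT and 495, 467 and 493 FPKM in D1240A (0.39, limma adjusted p = 8.65e-06). HLA-E, HLA-F and the peptide transporter TAP1 rose by 0.36, 0.45 and 0.28. The calls of HLA-B, HLA-E and TAP1 were lost with the values as deposited (limma adjusted p = 0.089, 0.0941 and 0.236).

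NF-kB genes rose in part: 12 of 28 tested members were higher, with a median of 0.12, and 10 were higher without D1240A replicate 2. In limma 0 members fell, also at an unadjusted p under 0.05 (0 members). With the values as deposited 4 were higher and the median was 0.00. BIRC3, an apoptosis inhibitor induced by NF-kB, stood at 90.4, 89.3 and 91.5 FPKM in WT and 127, 137 and 131 FPKM in D1240A, a rise of 0.54 ± 0.03 (limma adjusted p = 1.38e-06). TNFAIP3, which ends NF-kB signaling as a ubiquitin-editing enzyme, was at 74.2, 73.2 and 73.8 FPKM and 95.5, 101.02 and 99.4 FPKM (0.42, limma adjusted p = 3.29e-06). The adhesion receptor ICAM1 was at 22.01, 22.8 and 21.7 FPKM in WT and 30.3, 30.3 and 29.7 FPKM in D1240A (0.43, limma adjusted p = 2.33e-05). For all 3 genes every D1240A library was above every WT library, and their F1295A means, 98.0 ± 1.9, 76.6 ± 1.3 and 23.8 ± 0.66 FPKM, were closer to WT.

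SOCS1, an inhibitor of JAK kinases, was at 8.28, 6.69 and 6.36 FPKM in WT and 21.9, 20.3 and 20.3 FPKM in D1240A. It rose by 1.49 ± 0.09 (limma adjusted p = 1.25e-06), with 23.8 ± 1.2 FPKM in TKO. Over cytokine receptors and JAK-STAT genes, 10 of 40 tested members rose and 10 fell, 5 and 6 without WT replicate 1, and 6 fell without WT replicate 2 or D1240A replicate 3. With the values as deposited 2 rose. The list's median then turned sign, from 0.10 to -0.02. CSF2RB, the shared beta chain of the GM-CSF, IL-3 and IL-5 receptors, rose by 1.05, and STAT5B, a transcription factor downstream of such receptors, fell by 0.52.

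Interferon-stimulated genes were split, with 13 of 42 tested members higher, 4 lower and a median of 0.10, which was -0.01 with the values as deposited, where 4 were higher and 3 lower. CXCL10, a chemokine induced by interferon gamma, was at 8.21, 8.12 and 8.15 FPKM in WT and 18.1, 17.0 and 17.6 FPKM in D1240A. It rose by 1.06 ± 0.09 (limma adjusted p = 1.51e-05), above its levels in both F1295A (9.73 ± 0.93 FPKM) and TKO (3.65 ± 0.55 FPKM). SAMD9L, an antiviral and growth-restricting protein, rose by 0.49, and LY6E, an interferon-induced membrane protein, fell by 0.47. IRF1, a transcription factor of the interferon response, rose by 0.34, a call lost with the values as deposited (limma adjusted p = 0.0574).

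Among TNF family members 5 of 20 rose and 4 fell, with 3 higher in the values as deposited. TNFRSF18 (GITR), a costimulatory receptor, was at 3.57, 3.37 and 4.52 FPKM in WT and 12.7, 10.3 and 12.2 FPKM in D1240A. Its rise of 1.505 ± 0.10 (limma adjusted p = 3.86e-06) left it below the 35.4 ± 0.91 FPKM of TKO. TNFRSF11A (RANK) rose by 0.78, from 5.8 ± 0.28 to 10.3 ± 0.14 FPKM on average, while TKO held 1.17 ± 0.12 FPKM. TNFRSF17 (BCMA), a survival receptor of plasma cells, fell from 161, 169 and 157 FPKM to 117, 109 and 109 FPKM (-0.54, limma adjusted p = 1.37e-05).

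Of 39 chemokine and chemokine receptor genes 7 were tested, of which 4 rose and 1 fell, 3 and 1 without D1240A replicate 2, and 2 and 1 with the values as deposited. The homing receptors CXCR4 and CCR10 rose by 0.37 and 0.61. CXCR4 was not called with the values as deposited (limma adjusted p = 0.0888).

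Outside these lists, the smallest adjusted p-values of the comparison among higher genes belonged to PDE4DIP, RGS1, LCP1 and PLEKHO1. PDE4DIP, a scaffold protein of the centrosome and Golgi, was at 58.2, 58.3 and 56.6 FPKM in WT and 103, 106 and 107 FPKM in D1240A (0.86, limma adjusted p = 1.25e-08). RGS1, a regulator of G protein signaling in lymphocytes, was at 155, 157 and 153 FPKM and 273, 276 and 275 FPKM, higher by 0.82 (limma adjusted p = 3.63e-08). The spread within each group was a few FPKM, and the D1240A level of RGS1 was above both TKO (181 ± 3 FPKM) and F1295A (180.0 ± 6.2 FPKM). LCP1, the leukocyte actin bundler L-plastin, and PLEKHO1 rose by 0.81 and 0.96.

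LAMP5, a lysosome-associated protein, was at 3.42, 3.61 and 2.96 FPKM in WT and 9.8, 10.7 and 9.5 FPKM in D1240A (1.46, limma adjusted p = 1.04e-06). OLAH, a thioesterase of fatty acid synthesis, rose by 1.08 and CLDN16, a tight junction claudin, by 1.03. For these 3 low genes the D1240A mean was the highest of the 4 groups, with TKO at 5.42 ± 0.16, 0.873 ± 0.003 and 1.7 ± 0.13 FPKM and F1295A at 7.66 ± 0.67, 2.08 ± 0.42 and 2.15 ± 0.46 FPKM.

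**Figure D3:**
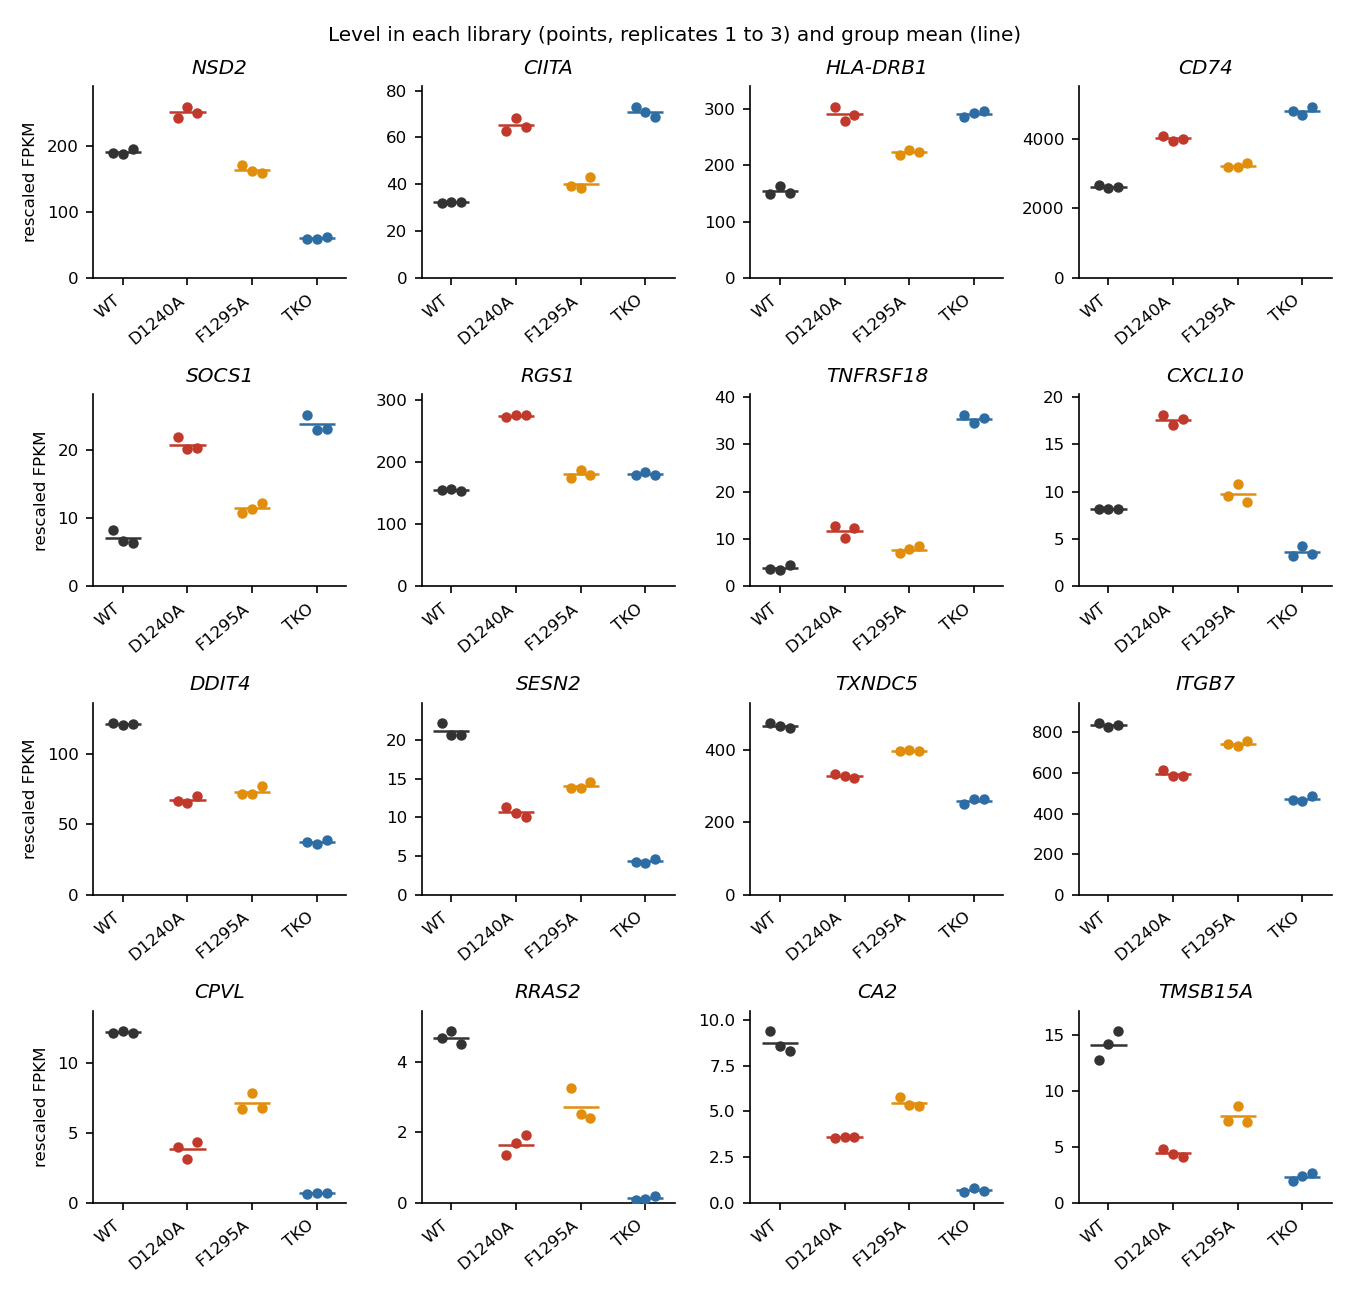
Rescaled FPKM (vertical axis, from 0) of 16 named genes in each library (points) with group means (lines) for WT, D1240A, F1295A and TKO. In every panel the 3 D1240A points lie wholly to one side of the 3 WT points, and NSD2, RGS1 and CXCL10 are highest in D1240A. For most of these genes no overlap was a condition of being named, so the separation is no separate result.

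Cell adhesion genes did not move one way. Of 57 cadherins and protocadherins 15 passed the filter on low values, and 5 of these rose and 1 fell, with a median of 0.04 that was -0.02 with the values as deposited, where 3 rose. CDH17, an intestinal-type cadherin, was at 79.2, 82.0 and 80.1 FPKM in WT and 108, 104 and 110.4 FPKM in D1240A, higher by 0.41 ± 0.03 (limma adjusted p = 1.67e-05; 0.058 with the values as deposited). TKO held 6.67 ± 0.2 FPKM and F1295A 93.7 ± 2.5 FPKM. PCDH10 was at 9.11, 8.9 and 8.88 FPKM in WT and 12.5, 13.6 and 12.9 FPKM in D1240A (0.51, limma adjusted p = 6.78e-05). PCDH9, CDH24 and CELSR1 rose by 0.92, 0.48 and 0.32, the last not called with the values as deposited (limma adjusted p = 0.103), and CELSR2 fell by 0.31. The neuronal cadherin CDH2 and the desmosomal cadherin DSG2, at 9.59 ± 0.29 and 32.6 ± 1.1 FPKM in D1240A, did not pass the test, with changes of -0.06 ± 0.09 and -0.05 ± 0.03.

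Immunoglobulin-like adhesion molecules and selectins were split, with 10 of 29 tested (of 60 listed) higher and 7 lower, with 3 lower without WT replicate 1 and 6 higher in the values as deposited. L1CAM, a neural adhesion molecule, was at 3.86, 2.71 and 3.42 FPKM in WT and 8.7, 8.23 and 9.02 FPKM in D1240A, higher by 1.27 ± 0.10 (limma adjusted p = 1.4e-05). NRCAM, of the same family, rose by 0.57, and CD48, a ligand of leukocyte receptors, by 0.49. The D1240A means of all 3 lay between WT and the TKO levels of 16.7 ± 0.42, 20.5 ± 0.6 and 89.7 ± 2.8 FPKM.

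Among 13 tested integrin genes, of 26 listed, 1 rose and 4 fell. ITGB7, the beta chain paired with alpha 4 or alpha E, was at 846, 828 and 838 FPKM in WT and 614, 587 and 584 FPKM in D1240A. It fell by 0.49 (SE 0.03, limma adjusted p = 1.58e-06), with 744 ± 11 FPKM in F1295A and 473 ± 14 FPKM in TKO. ITGB1, the most widely shared beta chain, fell by 0.26, and ITGA2, below 1 FPKM in both groups, by 0.67. ITGA4 rose by 0.15, a call lost without WT replicate 1 (limma adjusted p = 0.0956), without D1240A replicate 2 (limma adjusted p = 0.0751) and with the values as deposited (limma adjusted p = 0.836).

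Focal adhesion and actin linkage genes fell more often than they rose, 17 against 9 of 54 tested, with a median of -0.01. Without WT replicate 2 or WT replicate 3, 4 rose, and with the values as deposited 15 fell and 0 rose in limma (1 at an unadjusted p under 0.05). ENAH, an actin elongation factor of the Ena/VASP family, was at 2.99, 2.92 and 3.02 FPKM in WT and 0.753, 1.07 and 0.873 FPKM in D1240A (-1.32, limma adjusted p = 5.72e-05). Its relative EVL was at 30.5, 29.6 and 30.8 FPKM and 20.2, 22.4 and 22.3 FPKM (-0.48, limma adjusted p = 0.000106). The focal adhesion adaptor ZYX fell by 0.64 and the actin-bundling protein TAGLN2 by 0.32.

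Matrix genes went both ways, 6 higher and 7 lower of 29 tested and 87 listed, with 4 lower without WT replicate 3 or without D1240A replicate 2. COL6A1, a collagen VI chain, was at 3.06, 2.63 and 2.63 FPKM in WT and 6.62, 6.66 and 6.83 FPKM in D1240A (1.14, limma adjusted p = 3.86e-06). MATN2, a matrix adaptor, was the abundant member at 52.1, 51.2 and 53.6 FPKM in WT and 38.6, 37.5 and 37.0 FPKM in D1240A (-0.47, limma adjusted p = 2.59e-06). The proteases MMP9 and ADAM8 rose by 0.84 and 0.47, MMP9 from under 1 FPKM.

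Plasma cell identity genes were more often lower than higher. Of 25 tested members 16 fell and 4 rose, with a median of -0.20, and the same counts were found without D1240A replicate 2, against 10.9% of all tested genes lower. The values as deposited gave 14 lower and 2 higher. TXNDC5, a protein disulfide isomerase of the endoplasmic reticulum, was at 475, 466 and 461 FPKM in WT and 335, 328 and 323 FPKM in D1240A, lower by 0.51 (SE 0.03, limma adjusted p = 5.95e-07). XBP1, the transcription factor that builds the secretory apparatus, was at 433, 427 and 426 FPKM in WT and 355, 346 and 352 FPKM in D1240A (-0.29, limma adjusted p = 1.37e-05). DERL3, a channel component of ER-associated degradation, fell by 0.45 and the survival kinase PIM2 by 0.27. JCHAIN, which joins antibody polymers, and PRDM1, the repressor that fixes plasma cell fate, fell by 0.27 and 0.21, the latter by 0.33 with the values as deposited.

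The 4 members that rose included SLAMF7, an antibody target in myeloma, at 0.645, 0.583 and 0.876 FPKM in WT and 1.58, 1.7 and 2.11 FPKM in D1240A (0.94, limma adjusted p = 0.00173). SPIB, a B cell factor of the ETS family, rose by 0.57 among B cell genes, of which 3 of 13 rose and 2 fell. Without D1240A replicate 2 none of the 13 fell in limma, with 2 lower at an unadjusted p under 0.05.

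Endoplasmic reticulum stress and secretion genes held 19 lower members of 53 tested, with a median of -0.09, 15 lower without D1240A replicate 2 and 13 lower with the values as deposited. In limma 0 were higher (2 at an unadjusted p under 0.05), and 1 was higher without D1240A replicate 2. HERPUD1, a stress-induced degradation factor, was at 262, 256 and 257 FPKM in WT and 202, 205 and 203 FPKM in D1240A (-0.35, limma adjusted p = 1.34e-05). CLGN, a membrane chaperone that is not a member of this list, was at 10.8, 11.1 and 10.3 FPKM in WT. In D1240A it was at 5.09, 4.7 and 5.08 FPKM (-1.04, limma adjusted p = 1.38e-06). The largest fall within the list was 0.56.

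The amino acid response showed the largest share of lower genes among the lists with 30 or more tested members. ATF4 is the transcription factor that induces amino acid importers, tRNA synthetases and serine synthesis enzymes when amino acids are short or the endoplasmic reticulum is stressed. Of 39 tested members 26 fell and 2 rose, with a median of -0.25, and 25 fell without D1240A replicate 2, where neither rise was called. ATF4 itself was at 545, 551 and 547 FPKM in WT and 522, 491 and 495 FPKM in D1240A, lower by 0.12 (limma adjusted p = 0.0175), a call lost with the values as deposited (limma adjusted p = 0.0999) and without WT replicate 2, D1240A replicate 2 or D1240A replicate 3 (limma adjusted p = 0.0558, 0.0539 and 0.0628).

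DDIT4, an inhibitor of mTORC1, was at 122, 121 and 122 FPKM in WT and 66.8, 65.0 and 70.3 FPKM in D1240A, lower by 0.85 (SE 0.04, limma adjusted p = 4.18e-07). SESN2, another brake on mTORC1, was at 22.2, 20.7 and 20.6 FPKM in WT and 11.4, 10.5 and 10.01 FPKM in D1240A (-0.96, limma adjusted p = 1.92e-06). The 2 sets of libraries were clear of each other for both genes, and the TKO means were lower still at 37.3 ± 1.5 and 4.31 ± 0.27 FPKM. DDIT3 (CHOP), a stress transcription factor, and SLC7A5, the leucine importer LAT1, fell by 0.67 and 0.43. ATF3, a stress-induced factor of the AP-1 family, and INHBE, an inhibin subunit made under ER stress, are not members of the amino acid response list. Both were named for their large decreases. ATF3 was at 5.39, 5.69 and 5.09 FPKM in WT and 1.61, 2.76 and 1.9 FPKM in D1240A (-1.21, limma adjusted p = 0.000394). INHBE was at 8.66, 8.11 and 8.14 FPKM in WT and 2.54, 1.69 and 3.61 FPKM in D1240A (-1.55, limma adjusted p = 0.000131).

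CHAC1, a glutathione-degrading enzyme and a direct ATF4 target by background knowledge, was at 19.8, 19.2 and 19.0 FPKM in WT and 12.5, 13.0 and 12.05 FPKM in D1240A (-0.61, limma adjusted p = 2.77e-05). It is shown for the ATF4-type element of its promoter, 220 to 191 bases upstream of a RefSeq start, plus strand, at chr15:40953251-40953280 on GRCh38.p14. The capitals are TGATGCAA on the opposite strand.
CHAC1: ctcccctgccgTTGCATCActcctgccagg
TGATGCAA was searched on both strands within 250 bases upstream. Of the 32 tested list members with a RefSeq promoter entry 4 held it, against 0.772% of all 35116 entries. A member counted if any of its starts held it, whereas the share over all entries counts single starts, so the units are unlike. Of the 4, CHAC1 and SLC1A5 fell, and AARS and CEBPG were not called. CHAC1 was named after its values were seen. NUPR1 was the member that rose most, by 1.01 from a WT level under 0.4 FPKM, with overlapping groups and no call without WT replicate 1, WT replicate 3, D1240A replicate 2 or D1240A replicate 3 (limma adjusted p = 0.0684, 0.0645, 0.0635 and 0.0654).

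Glycolytic and hypoxia-responsive genes were also mostly lower: 24 of 43 tested members were lower and 2 higher, with a median of -0.22, and the counts without D1240A replicate 2 were equal. In limma on the values as deposited 24 were lower and 0 higher (1 higher at an unadjusted p under 0.05). LDHA, which turns pyruvate into lactate, was at 924, 966 and 929.7 FPKM in WT and 754, 748 and 790.3 FPKM in D1240A (-0.30, limma adjusted p = 6.48e-05). HK2, which traps glucose in the cell, was at 25.2, 25.1 and 25.3 FPKM and 18.5, 18.7 and 19.7 FPKM (-0.40, limma adjusted p = 9.46e-05), and the phosphofructokinase PFKP fell by 0.25. DDIT4 and KDM4B belong to this list as well, so the lists are not separate sets. In cholesterol and fatty acid synthesis 5 of 39 fell and 3 rose, shares near those over all tested genes (10.9% lower and 8.22% higher). None rose with the values as deposited in limma (1 at an unadjusted p under 0.05), and 3 were lower there and without WT replicate 1, WT replicate 3 or TKO replicate 2. Among those that fell were SCD, the stearoyl-CoA desaturase (-0.36), and FASN, the fatty acid synthase (-0.31).

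Immediate early and AP-1 genes fell in 11 of 21 cases and rose in 1, with a median of -0.23. JUN was at 3.26, 2.8 and 3.06 FPKM in WT and 1.23, 1.17 and 1.2 FPKM in D1240A (-1.06, limma adjusted p = 0.000113), and IER2, a serum-induced gene, was at 24.1, 23.3 and 23.9 FPKM and 18.4, 17.8 and 17.6 FPKM (-0.40, limma adjusted p = 0.000241). The member that rose was IER5, by 0.43, a call lost with the values as deposited (limma adjusted p = 0.0548). Of 17 tested MAPK feedback genes 6 fell and 2 rose, against 10.9% lower and 8.22% higher over all tested genes, and 4 fell and 1 rose without D1240A replicate 2. Neither rise was called with the values as deposited. DUSP5, a nuclear ERK phosphatase, fell by 0.67, and SPRY2, a receptor signaling inhibitor below 1 FPKM in both groups, by 0.71.

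Genes linked to t(4;14) myeloma fell in 9 of 24 cases and rose in 1, with a median of -0.21, and 10 fell without D1240A replicate 2, where the rise was not called. RRAS2, a RAS-related GTPase, was at 4.69, 4.87 and 4.5 FPKM in WT and 1.36, 1.69 and 1.92 FPKM in D1240A, lower by 1.28 (SE 0.13, limma adjusted p = 5.31e-05). CA2, carbonic anhydrase 2, was at 9.37, 8.59 and 8.3 FPKM and 3.57, 3.61 and 3.6 FPKM (-1.18, limma adjusted p = 4.65e-06). Both groups were well above the TKO means of 0.134 ± 0.044 and 0.681 ± 0.12 FPKM, and F1295A held 2.73 ± 0.45 and 5.47 ± 0.26 FPKM. PAK1, a kinase acting on the cytoskeleton, and MET, the HGF receptor, named after their values were seen, fell by 0.92 and 0.97.

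FGFR3, the receptor kinase of the translocation, was at 508, 502 and 504 FPKM in WT and 393, 396 and 387 FPKM in D1240A, lower by 0.36 (SE 0.03, limma adjusted p = 2.93e-05). MYC was at 248, 231 and 235 FPKM and 168, 179 and 165 FPKM (-0.48, limma adjusted p = 6.41e-06). DEPTOR, an mTOR-binding protein often high in MAF-positive myeloma, fell by 0.42, while MAF itself narrowly missed the threshold at -0.20 ± 0.06 (limma adjusted p = 0.0507). MAF was called lower in 10 of 24 alternatives. Among them were the WT and D1240A libraries alone (limma adjusted p = 0.0356) and the values as deposited (limma adjusted p = 0.0395). Around NSD2 at 4p16.3 2 of 26 tested neighbours fell, with C4orf48 at -0.53 (limma adjusted p = 0.0077), against 10.9% lower over all tested genes. In limma 0 rose (0 also at an unadjusted p under 0.05), but without D1240A replicate 2 there were 1 higher and 3 lower.

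The lower genes with the largest changes were mostly low in level. CPVL, a carboxypeptidase, was at 12.2, 12.3 and 12.2 FPKM in WT and 4.01, 3.14 and 4.36 FPKM in D1240A, lower by 1.56 (SE 0.10, limma adjusted p = 2.83e-06). TMSB15A, an actin-binding thymosin, was at 12.8, 14.2 and 15.3 FPKM and 4.83, 4.39 and 4.11 FPKM (-1.56, limma adjusted p = 3.86e-06). GPR171, a G protein-coupled receptor, had the largest drop, 1.88, but a large spread, from 5.3, 5.53 and 2.81 FPKM in WT to 0.634, 0.418 and 1.73 FPKM in D1240A (SE 0.42, limma adjusted p = 0.00903).

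EPB41L3, a membrane skeleton protein, IGF2BP2, an RNA-binding protein, and RAI14, an actin-associated protein, fell by 1.51, 1.48 and 1.43. TPD52L1 fell by 1.32 and GALNT14, which starts O-glycosylation, by 1.15. The mean levels of these 5 genes in F1295A, 1.14 ± 0.47, 1.75 ± 0.39, 3.56 ± 0.14, 1.21 ± 0.21 and 3.62 ± 0.9 FPKM, were all below their WT means. AIG1, a hydrolase of fatty acid esters, fell less, by 0.73, with little spread (15.8, 15.1 and 15.2 FPKM in WT and 9.24, 8.85 and 9.09 FPKM in D1240A, limma adjusted p = 1.56e-06).

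Nuclear genes of ribosomes and respiration were more often lower than higher, by small amounts. Most did not pass the test and the counts depended on single libraries. Over all tested genes 10.9% were lower and 8.22% higher. Of 79 cytosolic ribosomal protein genes 35 fell, with a median of -0.14. In limma 0 rose (0 at an unadjusted p under 0.05), and 1 rose without D1240A replicate 2. The lower count was 19 without D1240A replicate 2, 15 without WT replicate 1, 22 without WT replicate 2 and 8 with the values as deposited. RPL35 was at 1716, 1601 and 1605 FPKM in WT and 1374, 1330.3 and 1362 FPKM in D1240A (-0.27, limma adjusted p = 0.000244), and RPL27 fell by 0.30. These genes have many processed copies, which makes their FPKM uncertain.

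Of 77 nuclear oxidative phosphorylation genes 30 fell and 1 rose (3 rose without D1240A replicate 2), with 15 to 19 lower when WT replicate 1, D1240A replicate 2 or D1240A replicate 3 was left out and 10 with the values as deposited. ATP5F1D, an ATP synthase subunit, fell by 0.36 and NDUFB10, a complex I subunit, by 0.22 (by 0.35 with the values as deposited). Among 77 mitochondrial ribosomal protein genes 15 fell and 2 rose, but 7 fell and 4 rose without D1240A replicate 2. The latter shares were near those over all genes tested without that library, 8.9% lower and 6.73% higher. Leaving out WT replicate 1, WT replicate 2 or D1240A replicate 3 gave 6, 9 and 8 lower, and the values as deposited gave 9 lower. The 13 mitochondrially encoded mRNAs gave 0 calls in limma and 0 at an unadjusted p under 0.05, with a range of -0.11 to 0.12. SRM, spermidine synthase and a MYC target, fell by 0.36 among MYC and ribosome biogenesis genes, where 13 of 46 fell and 2 rose (1 without D1240A replicate 2). For that list the values as deposited gave 9 lower and 0 higher in limma (0 higher at an unadjusted p under 0.05). MYCN, of the same list, fell by 0.57.

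**Figure D4:**
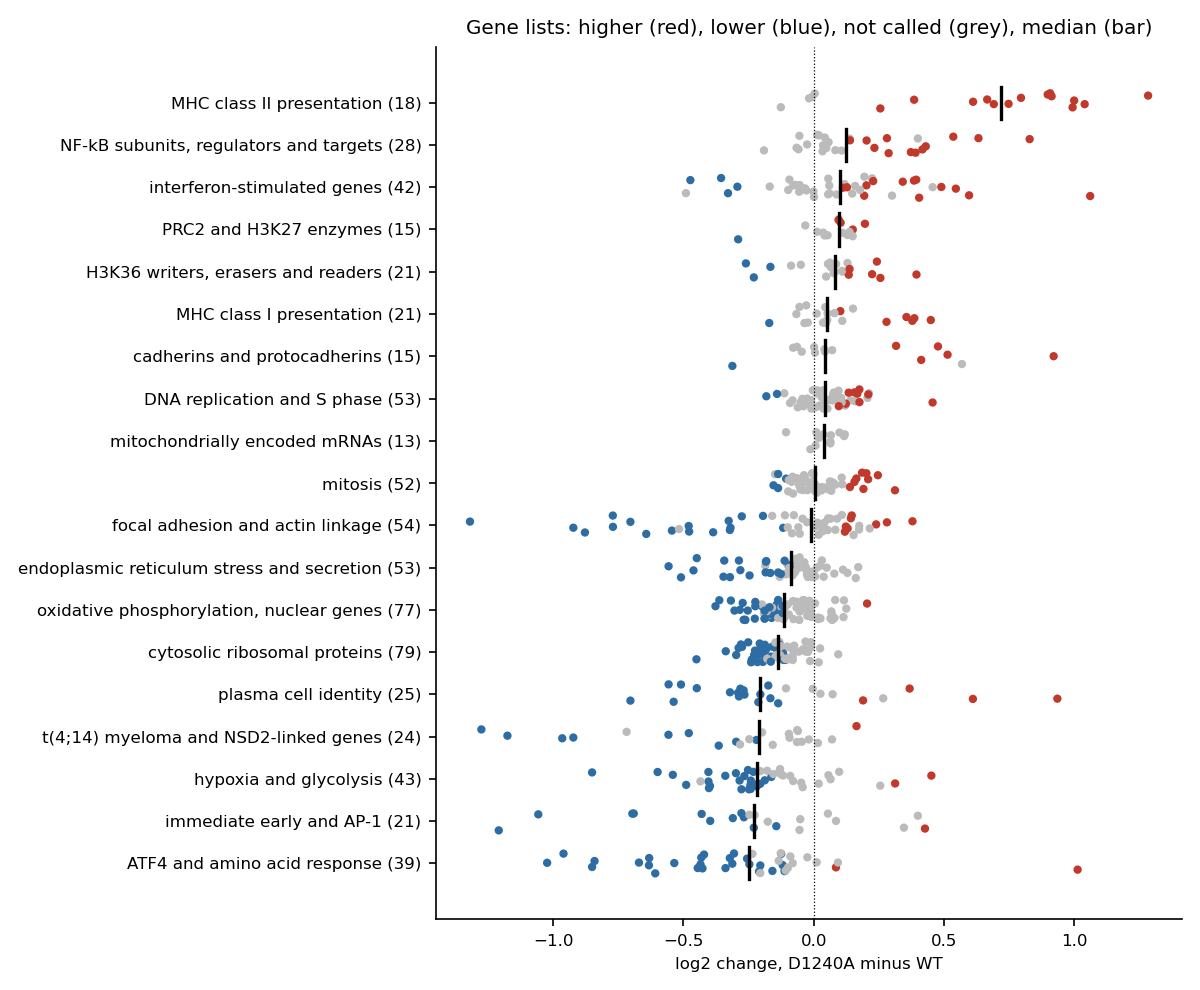
Log2 change of D1240A minus WT (horizontal axis) for the tested members of 19 gene lists (number tested in brackets), called higher in red, lower in blue and not called in grey, with bars at list medians. Class II presentation has the highest median, 0.72, and the ATF4 list the lowest, -0.25, both on the rescaled values.

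Chromatin enzymes changed little. Of the enzymes and readers of H3K36 methylation 21 were tested, of which 6 rose and 3 fell, with 4 and 1 without D1240A replicate 2 and 2 higher without WT replicate 1. NSD2, the gene carried by the vectors, is a member and is counted among the higher genes in each of these fits. With the values as deposited 1 rose, NSD2 itself, and 2 fell, and the list median of 0.08 turned to -0.04. Apart from NSD2, the highest changes were those of ASH1L and SETD2, other H3K36 methyltransferases, at 18.7, 19.8 and 21.3 and 9.92, 10.1 and 10.2 FPKM in WT and 21.8, 25.6 and 24.3 and 11.04, 12.7 and 12.3 FPKM in D1240A. Their rises of 0.26 and 0.24 (limma adjusted p = 0.0135 and 0.0173) were not called with the values as deposited (limma adjusted p = 0.26 and 0.328), nor without WT replicate 1 (0.0614 and 0.0618). That of SETD2 was also not called without D1240A replicate 2 or 3 (limma adjusted p = 0.06 and 0.061). KDM2A, an H3K36 demethylase, rose by 0.22, which was 0.10 and not called with the values as deposited (limma adjusted p = 0.354), and SMYD2 fell by 0.26. The NSD2 paralogs NSD1 and NSD3 did not pass the test, at 0.11 and 0.09, values that were -0.01 and -0.03 as deposited. NSD1 was called higher without D1240A replicate 1, by 0.18 (limma adjusted p = 0.048).

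Of 15 tested PRC2 and H3K27 genes 4 rose and 1 fell, with a median of 0.10 that was -0.02 with the values as deposited, where in limma 0 rose (0 also at an unadjusted p under 0.05). PHF19, a PRC2 recruiter, was at 56.0, 54.3 and 52.3 FPKM in WT and 47.3, 42.2 and 43.3 FPKM in D1240A, lower by 0.29 (limma adjusted p = 0.00196). The histone-binding subunit RBBP4 rose by 0.20 and the methyltransferase EZH2 by 0.10, values that were 0.07 and -0.02 as deposited. EZH2 was not called either when any WT library or D1240A replicate 3 was left out (limma adjusted p = 0.0645 to 0.102). Among 8 DNA methylation enzymes 3 rose, with UHRF1, which guides maintenance methylation, higher by 0.18 and DNMT1, the maintenance methyltransferase, by 0.13. Neither was called with the values as deposited, nor DNMT1 without WT replicate 1 (limma adjusted p = 0.0592), and the list's median turned from 0.05 to -0.06. In limma 0 of the 8 fell, and 0 were lower at an unadjusted p under 0.05.

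Growth and survival genes went both ways. Of 53 replication and S phase genes 9 rose and 2 fell, and of 52 mitosis genes 9 rose and 4 fell, but with the values as deposited 0 rose in either list in limma (1 in each at an unadjusted p under 0.05), and both medians turned negative, -0.08 and -0.12. Without WT replicate 1 the higher counts were 3 and 5, and without D1240A replicate 3 they were 4 and 5. TOP2A was at 93.8, 96.6 and 94.6 FPKM in WT and 108, 111 and 109 FPKM in D1240A (0.20, limma adjusted p = 0.000977; 0.527 with the values as deposited). TP53INP1, a p53-induced stress protein, rose by 0.66, and the death receptor FAS by 0.29, the latter not called with the values as deposited (limma adjusted p = 0.146). Of 17 BCL2 family genes 6 fell and 2 rose (1 without D1240A replicate 2), with the BH3-only genes BCL2L11 at 0.42 and PMAIP1 at -0.47 in opposite directions. CDKN2C, an inhibitor of CDK4 and CDK6, fell by 0.27, while CDKN1A, the CDK inhibitor p21, rose by 0.73 (limma adjusted p = 0.0121) from 0.234, 0.178 and 0.35 FPKM in WT to 0.624, 0.702 and 0.923 FPKM in D1240A.

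Replication-dependent histone genes followed the RNA classes of D1240A replicate 2. With this library 4 of 44 tested rose and the median was 1.00, and without it 8 of 41 rose, 1 fell and the median was 0.11. HIST1H2BK was at 287, 255 and 273 FPKM in WT and 335, 426 and 338 FPKM in D1240A replicates 1 to 3, with a change of 0.42 that was 0.31 without replicate 2 (limma adjusted p = 0.00418 and 0.00303). HIST1H2AC was at 11.2, 11.4 and 10.9 FPKM and 15.1, 22.9 and 14.5 FPKM, with 0.60 and 0.39. In both genes D1240A replicate 2 was highest, and D1240A replicates 1 and 3 were also above all WT libraries.

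**Figure D5:**
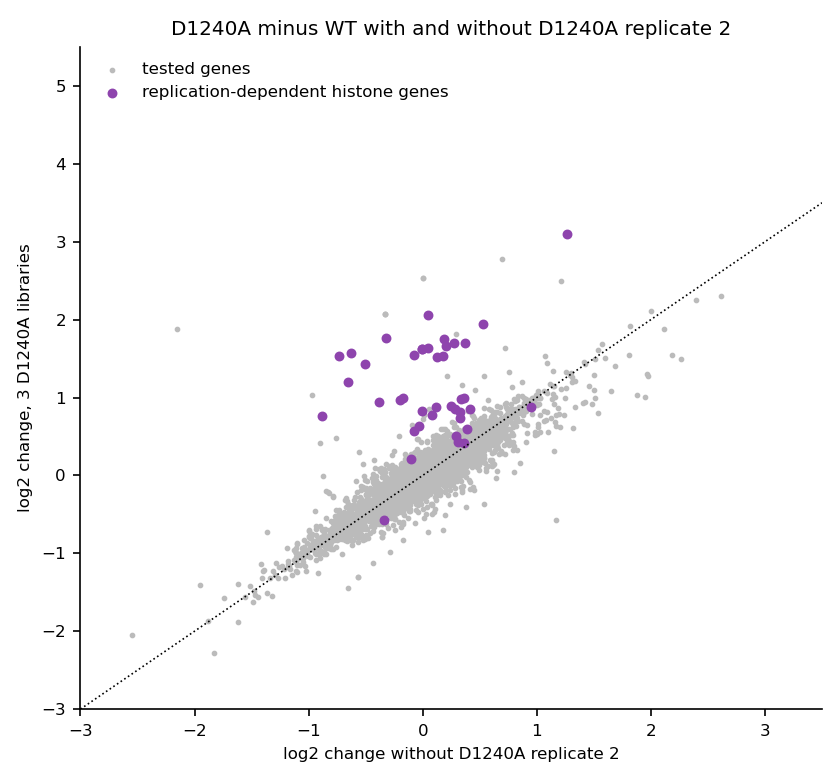
Log2 change of D1240A minus WT with all 3 D1240A libraries (vertical axis) against the change without D1240A replicate 2 (horizontal axis) for 14292 genes tested in both fits, with 4 outside the axes and histone genes in purple. Most genes lie along the dotted line of equal values, and most histone genes lie above it.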

How the data were processed

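Poly(A) RNA was sequenced from 12 libraries, 3 per group. Per the submitters' processing notes, the tools named are Trimmomatic 0.36, FastQC 0.11.4, STAR 2.7.9a, RSEM 1.3.1 and DESeq2, with build GRCh38. The authors deposited 1 FPKM value per gene and library, a unit read from the values. The sources used here name neither annotation release nor strand setting. Of 60504 features, 94.2% matched GENCODE 29, used for classes and coordinates.

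Left out were 7089 structural RNA features. Libraries were scaled to a common centre with a mean of log2 ratios, 30% trimmed from each side, over genes averaging 1 FPKM or more. Genes reaching 0.5 FPKM in 3 or more libraries entered 1 limma fit (version 3.58.1, R 4.3.3) of all 12 libraries on log2(FPKM + 0.5), with a variance trend. Depth, estimated after the data were seen from FPKM steps in single-transcript genes of 400 to 900 bases, ran from 32700000 to 57600000 fragments and gives no counting interval. On simulated data, 200 of 14391 genes were changed, 100 of them 1.5-fold and 100 of them 3-fold. Of these, 88% and 100% were called, with 20 false calls beside them. Far fewer genes were changed there than the 2756 called in these data, so the share of false calls cannot be carried over. The comparison, members and lists were chosen with earlier results of these data known. Named genes were NSD2, the 12 with the largest change in each direction and the 5 with the smallest adjusted p in each direction among those called with and without D1240A replicate 2, with no overlap of groups and a mean of at least 2 FPKM, the 4 with the smallest adjusted p in each list of at least 5 tested members, and the tested H3K36, PRC2 and cadherin members. Markers came from a fixed list. ATF4, NUPR1, RFXANK, RFXAP and the members named for a promoter motif lie outside these rules. Other names are marked as chosen after their values were seen. Promoters are from RefSeq, GRCh38.p14. Alternatives covered scaling, filters, pseudocounts, structural RNA kept, coding genes only, library weights, the compared libraries alone, a replicate block, windows and each library left out.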

Additional observations from a re-analysis of the deposited data

Results flagged for a closer look

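D1240A replicate 2 held RNA classes outside the comparison at levels above every other library. Of the FPKM it was deposited with, 51.4% lay on ribosomal RNA features, and the next highest library had 0.995%. Its small nuclear RNA features summed to 90165 FPKM, against 66.8 to 307 FPKM, and its small nucleolar RNA features to 43022 FPKM, against 37.1 to 353 FPKM. Their part in the results was not tested beyond the fits without this library.

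The change from WT differed between D1240A and F1295A for 877 genes (6.09% of those tested, limma with Benjamini-Hochberg adjustment), of which 432 were higher and 445 lower in D1240A. CIITA was among them, higher in D1240A than in F1295A by 0.69 (adjusted p = 3.61e-05), as was ITGB7, lower in D1240A by 0.32 (adjusted p = 0.00019), whereas DDIT4 did not pass the test, at -0.12 (adjusted p = 0.105).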

How the results depend on the processing

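Counts below are genes higher and lower in D1240A than in WT, 1183 and 1573 as reported. The higher count was 249 with the values as deposited and 783 with the WT and D1240A libraries alone in the fit. At a minimum of 2-fold the counts were 25 and 57. Leaving out each of the 12 libraries in turn gave 724 to 1196 higher and 999 to 1637 lower, the lowest without WT replicate 1. The replicate block gave 1002 and 1358. Same-numbered WT and D1240A libraries deviated with correlations of 0.08, -0.05 and 0.01, and differently numbered ones with -0.11 to 0.08. These values show no pairing by number, but a shared batch or culture was not tested. NSD2 stayed higher in D1240A in all 24 alternatives tried, and its change was 0.27 with the values as deposited (limma adjusted p = 0.0335). Of 140 named genes that were called, 108 kept their call in every alternative. Many were named for small adjusted p or for a call also without D1240A replicate 2, so this share does not describe all 2756 called genes. With the values as deposited 26 named genes called higher and 3 called lower missed the threshold. EZH2, NSD1 and NSD3 then turned sign, to -0.018, -0.0094 and -0.034. The values as deposited lack the rescaling factors, -0.30 on the log2 scale for D1240A replicate 2, and the median of all genes was then -0.10. The same factors act on every gene, so calls lost with the values as deposited are not independent of one another. Why D1240A replicate 2 differs was not tested. Depth of roughly 32700000 to 38400000 fragments in 2 D1240A libraries limits low genes there.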

Other observations

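Genes with zinc finger symbols (ZNF, ZFP, ZSCAN, ZKSCAN and ZIM), a group noticed in these data and so a description, were more often higher than lower. Of 369 tested protein-coding members 54 rose (14.6%) and 8 fell (2.17%), against 8.22% and 10.9% of all tested genes, with a median of 0.11 that was 0.09 without D1240A replicate 2, where 35 rose and 6 fell. With the values as deposited 3 rose and 11 fell, and the median was 0.0031. Of 273 windows of 50 neighbouring tested genes, the highest median, 0.22 (0.20 without D1240A replicate 2), lay at chr19:56219670-58278808 on GRCh38, where 8 genes rose. That window held 35 tested genes with such symbols, of which 31 had changes above 0 and 8 rose, 5 of them also called without D1240A replicate 2 and none with the values as deposited. ZNF274, a zinc finger protein that recruits a heterochromatin enzyme, rose by 0.27 (limma adjusted p = 0.00126), and ZNF586 by 0.35 (limma adjusted p = 0.00526), both named after their values were seen.

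Other gene lists changed in both directions or hardly at all. DNA break repair genes rose in 9 of 47 cases and fell in 2, but neither fall was called without D1240A replicate 2 (limma, 2 lower at an unadjusted p under 0.05) and the higher count was 3 without WT replicate 1, 2 without WT replicate 2, 4 without D1240A replicate 2 and 5 without D1240A replicate 3, and with the values as deposited the median turned from 0.06 to -0.06. Over all tested genes the shares were 8.22% higher and 10.9% lower. Of 28 tested p53 targets 3 rose and 6 fell, and of 34 axon guidance genes 2 rose and 4 fell (1 and 3 without D1240A replicate 2). Of 42 proteasome subunits 2 rose and 3 fell, but without D1240A replicate 2 the count was 3 higher and none lower in limma (4 lower at an unadjusted p under 0.05), and all 5 calls were lost with the values as deposited. Of 19 PRC1 subunits 1 rose and 2 fell.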
